A study of Homo sapiens with 5 samples.

Results

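The HOX gene clusters are 4 runs of homeobox genes, and the regions described here are the peaks of 3 deposited chromatin lists that overlapped the hg19 windows of those clusters. The HOXA window was chr7:27130000-27250000 (120 kb), the HOXB window chr17:46600000-46810000 (210 kb), the HOXC window chr12:54330000-54450000 (120 kb) and the HOXD window chr2:176940000-177060000 (120 kb). The windows, together 570 kb, were set by gene position and not by any measured value. They held 207 of the 94237 ASXL1 peaks, 38 of the 21697 FOXK1 peaks and 104 of the 78825 O-GlcNAc peaks. The 38 HOX genes considered were 10 of the HOXA cluster, 10 of the HOXB cluster, 9 of the HOXC cluster and 9 of the HOXD cluster. No annotation of the hg19 build was used here, so a peak is given by its coordinates and its distance from a window's edge, and none of the 38 genes is assigned a peak.

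Chromatin immunoprecipitation with sequencing (ChIP-seq) recovers DNA fragments that an antibody pulls down with a protein or a modification, and stretches with more fragments than a control are called peaks. All 5 libraries were made from the Flp-In HEK293 T-REx line, established from human embryonic kidney cells, which carries a site for inserting a transgene and a tetracycline repressor, and the labels name no treatment or transgene. There was 1 library for each antibody and 2 input libraries, which were not analysed here. Chromatin preparation 63 gave the libraries of ASXL1 and of O-GlcNAc, and preparation 62 that of FOXK1, so for FOXK1 the antibody and the preparation cannot be told apart. With 1 library per antibody there is no replicate spread, no p-value was computed, and the 95% intervals given cover the counting of peaks only, although neighbouring peaks are not independent. The lists carry no read numbers, so the depth behind a peak is unknown.

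HOX genes encode transcription factors that give body segments their identity, and the genes of a cluster lie along the chromosome in the order in which they are used from head to tail. Low-numbered (anterior) genes such as HOXB1, HOXA2 and HOXD1 act in the hindbrain and upper trunk, middle genes such as HOXA5 and HOXC8 in the thorax, and high-numbered (posterior) genes such as HOXA13 and HOXD13 in the distal limb and the urogenital tract. HOXA11 and HOXD11 take part in kidney development, and HOXA9 and HOXA10 are often highly expressed in acute leukaemia. In cells that do not use them the clusters are classical targets of Polycomb repression, which marks histones by methylation and by ubiquitin. ASXL1 is a human relative of the fly Additional sex combs protein and the partner of BAP1, the enzyme that removes ubiquitin from histone H2A. FOXK1 is a forkhead transcription factor that binds BAP1, and O-GlcNAc is a single sugar that the enzyme OGT places on many nuclear proteins, the BAP1 partner HCFC1 among them.

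Promoter sequences are shown for 4 HOX genes, a pair with a forkhead word, because FOXK1 is a forkhead factor, and a pair with the word CACGTG, which was more frequent among HOX promoters than among all promoters. RefSeq promoters of GRCh38.p14 were found for 20 of the 38 genes, and the 250 bases before each start gave 26 different sequences. HOXA3 gave more of them than any other gene, through its several starts. From HOXB there was only HOXB1 and from HOXC only a start shared by HOXC4 and HOXC5, so the shares below describe mostly HOXA and HOXD. Genes without an entry were HOXA5, HOXB2, HOXB3, HOXB4, HOXB5, HOXB6, HOXB7, HOXB8, HOXB9, HOXB13, HOXC6, HOXC8, HOXC9, HOXC10, HOXC11, HOXC12, HOXC13 and HOXD9. A forkhead word (GTAAACA or ATAAACA, either strand) was present in 2 of the 26 (7.69%), against 6.56% of all 34943 promoters. The 2 were 1 of the starts of HOXA3, a gene of neck and thymus development, and the start shared by HOXC4 and HOXC5. The HOXA3 sequence is chr7:27152584-27152833 on the minus strand and the HOXC4 sequence chr12:54016638-54016887 on the plus strand. This HOXA3 start lies between those of HOXA6 and HOXA7, away from most other HOXA3 starts. Each sequence is written 5′ to 3′ toward the gene's start with the word in capitals. The match begins at position 119 of the HOXA3 sequence and at position 56 of the HOXC4 sequence, counted from the 5′ end.
HOXA3: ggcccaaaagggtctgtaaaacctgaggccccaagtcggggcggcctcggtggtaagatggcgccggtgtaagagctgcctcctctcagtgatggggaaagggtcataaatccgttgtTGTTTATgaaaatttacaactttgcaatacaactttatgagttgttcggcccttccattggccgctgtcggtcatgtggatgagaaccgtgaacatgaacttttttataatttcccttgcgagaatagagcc
HOXC4: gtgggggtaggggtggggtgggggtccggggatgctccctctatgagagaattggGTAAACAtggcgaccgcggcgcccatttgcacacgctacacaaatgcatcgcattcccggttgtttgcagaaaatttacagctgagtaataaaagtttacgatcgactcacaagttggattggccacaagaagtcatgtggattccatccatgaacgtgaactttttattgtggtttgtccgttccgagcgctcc
The HOXA3 word is the reverse complement of ATAAACA, and the HOXC4 word is GTAAACA itself.

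The palindrome CACGTG, the core of the E-box read by MYC and related factors, was present in 8 of the 26 HOX promoters (30.8%), against 6.32% of all promoters. They belonged to HOXA3 (another start than the one above), HOXA4, HOXA9, HOXD1, HOXD3, HOXD10, HOXD11 and HOXD13. The sequences of HOXA9 (chr7:27165538-27165787, minus strand) and HOXD10 (chr2:176116528-176116777, plus strand) are given with CACGTG in capitals, at position 180 and position 145.
HOXA9: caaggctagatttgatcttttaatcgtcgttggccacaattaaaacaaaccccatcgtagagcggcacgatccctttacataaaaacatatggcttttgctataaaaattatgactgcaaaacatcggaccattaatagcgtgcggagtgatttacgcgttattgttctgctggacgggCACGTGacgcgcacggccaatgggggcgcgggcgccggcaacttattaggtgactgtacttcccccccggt
HOXD10: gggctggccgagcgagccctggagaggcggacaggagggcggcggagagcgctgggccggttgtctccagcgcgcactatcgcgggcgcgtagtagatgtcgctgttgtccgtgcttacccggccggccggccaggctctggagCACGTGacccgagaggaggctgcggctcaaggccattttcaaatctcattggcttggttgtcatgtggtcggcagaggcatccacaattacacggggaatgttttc
The word CCAAT (either strand) was present in 17 of the 26 (65.4%) and in 32.0% of all promoters. The median GC share was 58.8% in HOX promoters and 58.0% in all, and the median number of CpG pairs per 250 bases was 19.5 and 11. These words were searched after the peaks had been seen, a match is a run of letters and not a bound site, and the GRCh38 positions cannot be set beside the hg19 peaks.

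Peaks of all 3 lists were denser in the HOX windows than in the 500 kb on either side of them, and the contrast was largest for ASXL1. ASXL1 had 36.3 peaks per 100 kb in the windows (95% Poisson interval 31.5 to 41.6) and 7.62 in the flanks, a ratio of 4.76 (3.97 to 5.70). For O-GlcNAc the densities were 18.2 (14.9 to 22.1) and 5.88 peaks per 100 kb, a ratio of 3.11 (2.44 to 3.93). For FOXK1 they were 6.67 (4.72 to 9.15) and 2.48, a ratio of 2.69 (1.80 to 3.95). The pooled flanks were themselves above the average of chromosomes 1 to 22 and X, which per 100 kb was 3.10 peaks in the ASXL1 list, 2.59 in the O-GlcNAc list and 0.708 in the FOXK1 list. For ASXL1 the HOXA and HOXD flanks, at 3.10 and 3.30 peaks per 100 kb, were close to that average, while those of HOXB and HOXC had 11.4 and 12.7. The HOXD flanks were above it in the other lists, with 1.90 FOXK1 and 3.90 O-GlcNAc peaks per 100 kb. By bases covered the order of the 3 ratios was the same. ASXL1 peaks covered 27.1% of the windows and 3.83% of the flanks, O-GlcNAc peaks 9.71% and 2.17%, and FOXK1 peaks 5.85% and 1.35%. The ratios depended on which peaks were counted: with a score of at least 100 the ASXL1 ratio was 7.02, the O-GlcNAc ratio 5.23 and the FOXK1 ratio 4.41, and among the 10000 highest-scoring peaks of a list 10.5 for ASXL1, 5.99 for O-GlcNAc and 3.58 in the case of FOXK1.

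**Figure D1:**
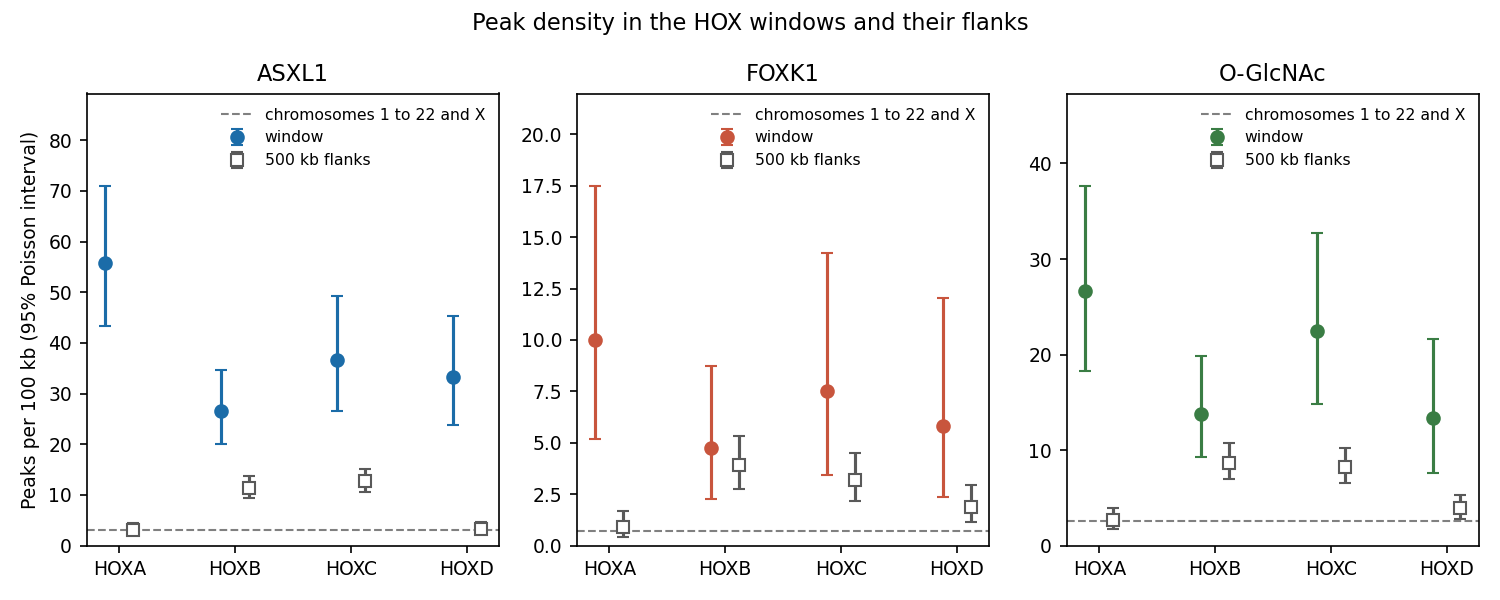
Peaks per 100 kb in each HOX window (filled circles) and in its 500 kb flanks (open squares) for the 3 lists, with 95% Poisson intervals, and the average of chromosomes 1 to 22 and X (dashed line). HOXA had the highest window density in every list, with 55.8 ASXL1, 26.7 O-GlcNAc and 10.0 FOXK1 peaks, and the HOXB and HOXC flanks were denser than those of HOXA and HOXD for ASXL1.

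The 4 clusters differed in how far they stood above their flanks, and the flanks differed as well. HOXA, the cluster of the leukaemia-associated HOXA9 and HOXA10, held 67 ASXL1 peaks against 31 in its flanks, which is 55.8 (43.3 to 70.9) against 3.10 per 100 kb, a ratio of 18.0 (11.6 to 28.5). HOXD held 40 ASXL1 peaks against 33, a ratio of 10.1 (6.21 to 16.5). HOXC held 44 against 127, a ratio of 2.89 (2.00 to 4.10), and HOXB 56 against 114, a ratio of 2.34 (1.67 to 3.25). The window densities alone spanned a narrower range: 33.3 per 100 kb for HOXD, 36.7 for HOXC and 26.7 for HOXB, with overlapping intervals among these 3, while the HOXA interval lay above that of HOXB and overlapped those of HOXC and HOXD.

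O-GlcNAc followed a like order. HOXA held 32 O-GlcNAc peaks against 27 in its flanks (ratio 9.88, 5.73 to 17.1), HOXD 16 against 39 (3.42, 1.78 to 6.26), HOXC 27 against 82 (2.74, 1.71 to 4.28) and HOXB 29 against 87 (1.59, 1.00 to 2.44). FOXK1 counts were small, with 12 peaks in HOXA against 9 (ratio 11.1, 4.30 to 29.9), 7 in HOXD against 19 (3.07, 1.09 to 7.63), 9 in HOXC against 32 (2.34, 0.984 to 5.02) and 10 in HOXB against 39 (1.22, 0.544 to 2.49). For FOXK1 the intervals of the HOXB and HOXC ratios included 1, so no excess over the flanks was detectable there.

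The windows were also set beside the rest of the genome. Chromosomes 1 to 22 and X were tiled with windows of the same length, a comparison chosen after the peaks had been seen, in which the HOX windows fit their clusters while the tiles fall anywhere. For ASXL1 only 1 of 25279 tiles of 120 kb (0.00396%) held as many peak centres as HOXA, whose count by centre was 66, and that tile itself touched a HOX window; the highest tile outside the HOX windows held 50. HOXC (44 centres) was matched by 8 tiles (0.0316%), 2 of them touching a HOX window, and HOXD (40 centres) by 19 (0.0752%), while HOXB (56 centres) was matched by 11 of 14438 tiles of 210 kb (0.0762%). The median tile held 2 ASXL1 centres at 120 kb and 4 at 210 kb.

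For O-GlcNAc the single tile that reached the 32 centres of HOXA (0.00396%) and both tiles that reached the 27 of HOXC (0.00791%) touched HOX windows, and no 120 kb tile outside them held more than 25. HOXB (29 centres) was matched by 18 tiles (0.125%) and HOXD (16 centres) by 96 (0.380%). FOXK1 differed: 40 tiles (0.158%) held at least the 12 centres of HOXA, 121 (0.479%) the 9 of HOXC, 270 (1.07%) the 7 of HOXD and 170 of the 210 kb tiles (1.18%) the 10 of HOXB. The densest FOXK1 tile of 120 kb outside the HOX windows held 27 centres, more than the FOXK1 count of any HOX window. In bins of 10 kb, ASXL1 had a peak in 48 of the 57 HOX bins (84.2%), O-GlcNAc in 43 (75.4%) and FOXK1 in 30 (52.6%). Over chromosomes 1 to 22 and X, 60559 of 303474 bins held an ASXL1 peak, 20.8% held an O-GlcNAc peak and 6.38% a FOXK1 peak. In the flanks the occupied shares were 40.2% (ASXL1), 41.0% (O-GlcNAc) and 20.2% (FOXK1). With a score of at least 100, FOXK1 peaks occupied 33.3% of the HOX bins, 7.75% of the flank bins and 2.34% of those of chromosomes 1 to 22 and X.

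By their medians, HOX peaks scored higher and were wider than the peaks around them. The score is the value that the authors' peak caller gave each peak, it starts at 50 in each list, and it is used only within a list. The median ASXL1 score was 133 in the windows, 84.1 in the flanks and 74.2 in the whole list, and the median width 614, 343 and 269 bp. For FOXK1 the median scores were 107, 82.8 and 76.3 and the median widths 769.5, 467 and 437 bp, and for O-GlcNAc 89.2, 72.1 and 67.1 with widths of 466, 264 and 231 bp. The top 10% of the ASXL1 list included 40 of the 207 HOX peaks (19.3%), the top 10% of the O-GlcNAc list 16 of 104 (15.4%), and the top 10% of the FOXK1 list 4 of 38 (a share near 10%). At least 1000 bp wide were 45 HOX peaks of the ASXL1 list (21.7%, against 8.52% in the flanks and 6.59% of the list), 12 of the FOXK1 list (31.6%, against 3.03% and 6.97%) and 10 of the O-GlcNAc list (9.62%, against 4.26% and 2.82%).

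The highest peaks of the genome lay elsewhere. The best-ranked HOX peak of the ASXL1 list was in HOXA, at rank 462, and the best of HOXB, HOXC and HOXD were at ranks 816, 992 and 2879. For FOXK1 the best ranks were 910 in HOXA, 1656 in HOXB, 1784 in HOXD and 2532 in HOXC, and for O-GlcNAc 2029 in HOXC, 3139 in HOXB, 3147 in HOXA and 5399 in HOXD. The HOX windows thus held many peaks of upper-middle rank, with a median percentile of 75.7 in the ASXL1 list, 73.9 in the O-GlcNAc list and 69.2 in the FOXK1 list.

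**Figure D2:**
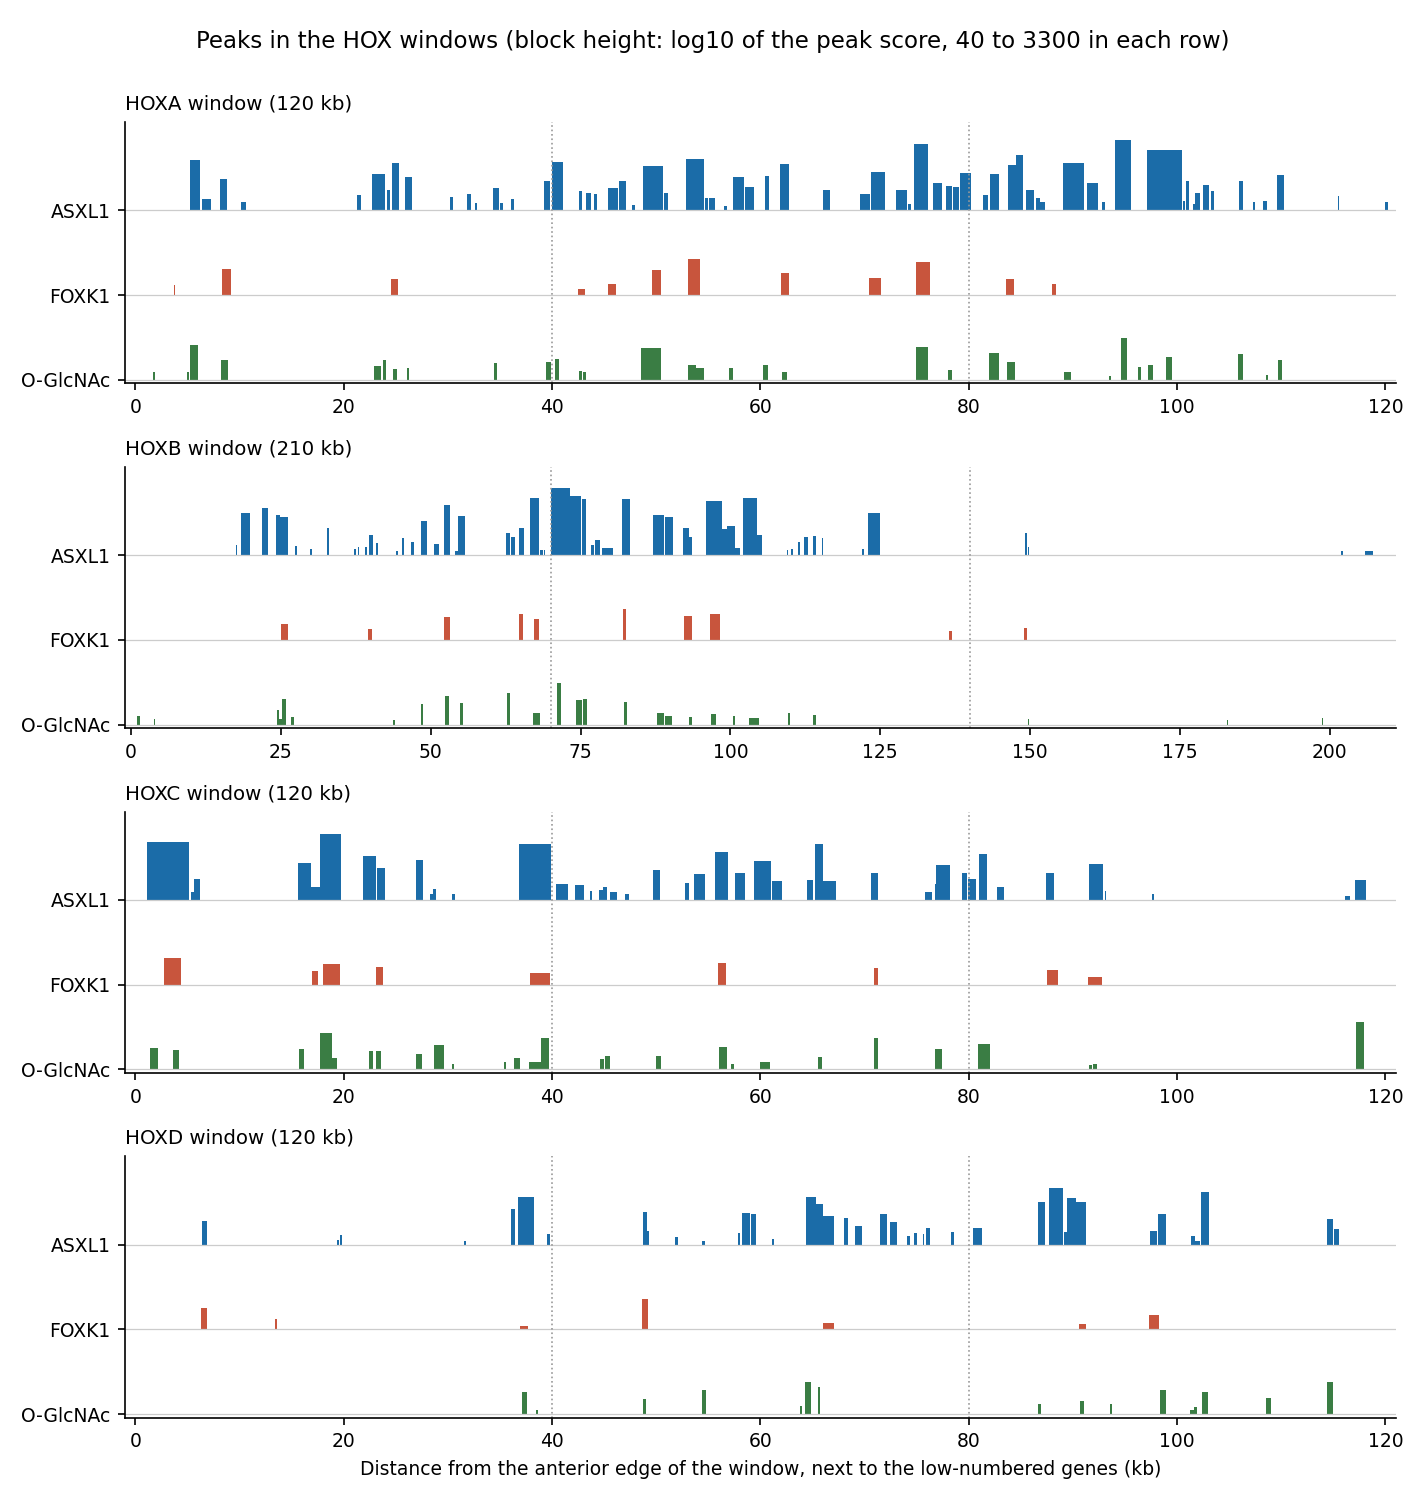
Every peak in the 4 HOX windows, drawn to scale by its distance in kb from the anterior edge, with ASXL1, FOXK1 and O-GlcNAc in separate rows and block height giving the score on the same log10 scale in each row. Dotted lines split each window into 3 equal parts. ASXL1 blocks are spread along HOXA, thin out after 125 kb in HOXB and are absent from 97.7 to 116 kb in HOXC.

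Position within a cluster was counted over 3 equal parts of each window, from the edge at the low-numbered genes to the edge at the high-numbered genes. Over all windows the anterior, middle and posterior parts held 63, 94 and 50 ASXL1 peaks, 16, 15 and 7 FOXK1 peaks and 39, 37 and 28 O-GlcNAc peaks. Of the peaks in the 2 outer parts, 44.2% of ASXL1 peaks (exact Clopper-Pearson interval 34.9 to 53.9%), 30.4% of FOXK1 peaks (13.2 to 52.9%) and 41.8% of O-GlcNAc peaks (29.8 to 54.5%) were posterior. All 3 intervals included 50%, but this depended on the setting, and several alternatives gave an interval below 50%. With each window split into 2 equal parts the posterior share of O-GlcNAc peaks was 39.4% (30.0 to 49.5%), and without HOXD it was 33.9% (21.8 to 47.8%) over the 3-part split. Without HOXA the ASXL1 share was 35.6% (24.7 to 47.7%), and with a score of at least 100 the FOXK1 share was 9.09% (0.230 to 41.3%).

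The clusters taken singly differed for ASXL1 and O-GlcNAc. In HOXA the ASXL1 counts were 16, 27 and 24 from anterior to posterior and the O-GlcNAc counts 10, 11 and 11. Of the outer ASXL1 peaks there, 24 of 40 were posterior (43.3 to 75.1%). In HOXD, ASXL1 had 7, 20 and 13 peaks, a share of 65.0% (40.8 to 84.6%), and O-GlcNAc 2, 5 and 9. For O-GlcNAc the HOXD share was 81.8% (48.2 to 97.7%), so no posterior excess was detectable in HOXA or HOXD at these counts. In HOXB, ASXL1 had 27, 25 and 4 peaks, a posterior share of 12.9% (3.63 to 29.8%), and O-GlcNAc 13, 12 and 4, a share of 23.5% (6.81 to 49.9%). In HOXC, ASXL1 had 13, 22 and 9 peaks and O-GlcNAc 14, 9 and 4, a share of 22.2% (6.41 to 47.6%). The intervals for ASXL1 in HOXB and for O-GlcNAc in HOXB and HOXC lay below 50%. FOXK1 had fewer posterior than anterior peaks in each cluster, with 2 of 5 outer peaks posterior in HOXA, 1 of 6 in HOXB, 2 of 7 in HOXC and 2 of 5 in HOXD, and each interval included 50%. Without HOXB the pooled posterior share of ASXL1 was 56.1% (44.7 to 67.0%) in place of 44.2%, on the other side of 50%.

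The HOXB window differs from the others in its build: HOXB13, a gene of prostate development, lies apart from HOXB9 at the posterior end. The posterior part of the window held the longest stretch without a peak of any list in the 4 windows, 32.9 kb from 150 to 183 kb behind the anterior edge. For ASXL1 alone the gap was 51.9 kb. The 4 posterior ASXL1 peaks of HOXB had a median score of 58.6, against 112 in the anterior part and 133 in the middle part. The other windows had shorter empty stretches, of 18.4 kb in HOXC (97.7 to 116 kb from the anterior edge), 11.7 kb in HOXD (19.9 to 31.5 kb) and 10.7 kb in HOXA (10.6 to 21.3 kb). O-GlcNAc had no peak in the first 37.1 kb of HOXD, the side of HOXD1, and a gap of 35.4 kb in HOXB. FOXK1 had no peak in the last 60.5 kb of HOXB, the last 31.6 kb of HOXA and the last 27.2 kb of HOXC.

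For ASXL1 and O-GlcNAc, summed peak width gave the posterior part the least in HOXB and HOXC, as the counts did. In HOXB, ASXL1 peaks summed to 17.8, 28.0 and 2.33 kb from anterior to posterior, so the middle part came before the anterior part, which had more peaks. In HOXC they summed to 15.6, 16.7 and 6.04 kb, the same order as the counts but with the anterior and middle parts closer together. The widest ASXL1 peak of all windows (chr12:54444831-54448895, 4065 bp, score 1322.6) lay near the anterior edge of HOXC. In HOXA the sums were 8.76, 21.1 and 16.8 kb and in HOXD 3.35, 9.06 and 9.15 kb.

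**Figure D3:**
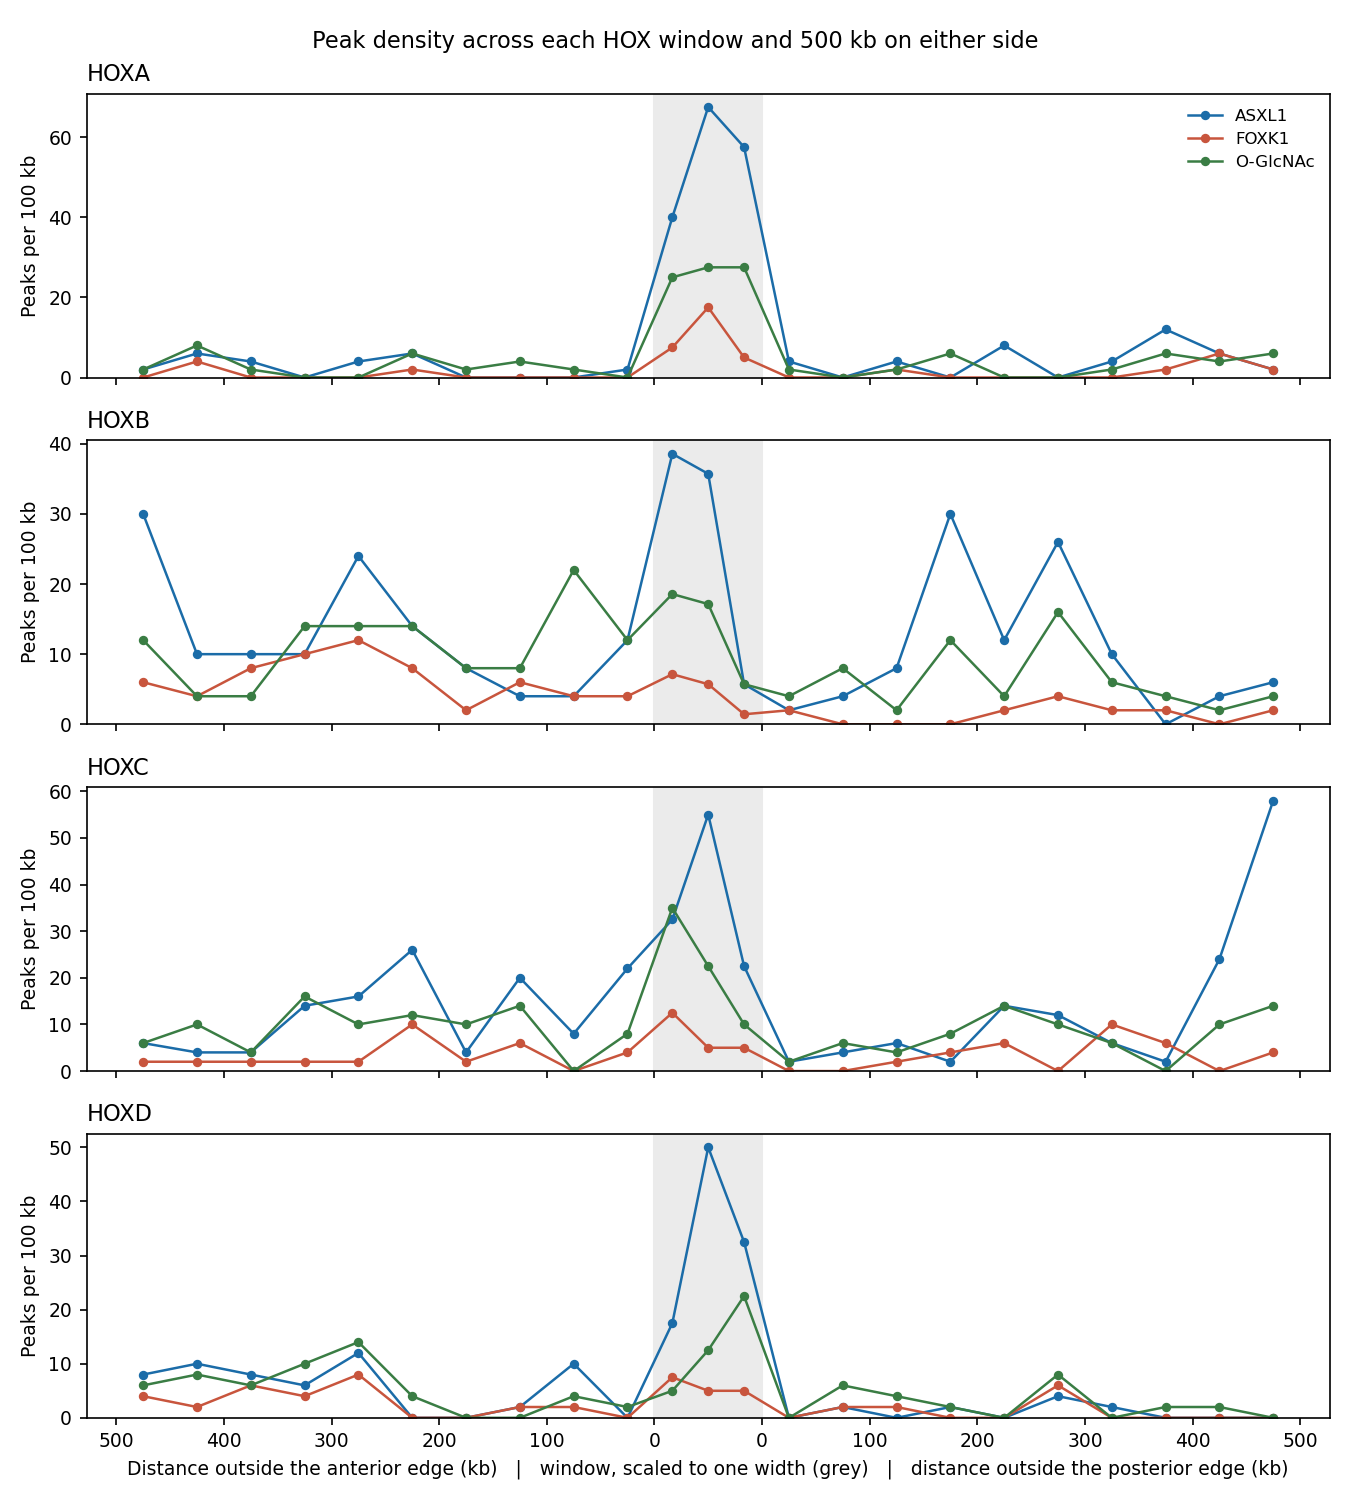
Peaks per 100 kb in the 3 parts of each HOX window (grey band) and in 50 kb steps out to 500 kb on either side, for ASXL1, FOXK1 and O-GlcNAc. Densities drop at both edges of HOXA. Flanks also carry rises, among them 29 ASXL1 peaks in the last 50 kb on the posterior side of HOXC and, 250 to 300 kb beyond the anterior edge of HOXD, 7 O-GlcNAc and 4 FOXK1 peaks.

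Over the 4 windows together the first 50 kb outside were no denser than the flanks further out, although HOXB and HOXC kept dense stretches nearby. The first 50 kb outside the windows held 22 ASXL1 peaks by centre (5.5 per 100 kb) against 7.89 per 100 kb further out. The values were 15 peaks and 3.75 against 6.11 for O-GlcNAc, and 5 peaks and 1.25 against 2.61 for FOXK1. HOXD had no ASXL1 or FOXK1 peak within 50 kb of either edge, and HOXA had no FOXK1 peak there. Around HOXC, 11 of the ASXL1 peaks in these first 50 kb lay beyond the anterior edge and 1 beyond the posterior edge. Around HOXB, O-GlcNAc had 11 peaks between 50 and 100 kb beyond the anterior edge, and 32 of the 39 FOXK1 flank peaks lay on the anterior side.

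FOXK1 and O-GlcNAc peaks overlapped ASXL1 more often in the HOX windows than in the flanks. Peaks of different lists count as shared when they have at least 1 bp in common. FOXK1 peaks overlapped an ASXL1 peak in 34 of 38 cases (89.5%, 75.2 to 97.1%), against 54.5% (44.2 to 64.6%) of the flank peaks and 42.3% of the whole FOXK1 list. O-GlcNAc peaks overlapped an ASXL1 peak in 85 of 104 cases (81.7%, 72.9 to 88.6%), against 39.1% (32.9 to 45.7%) in the flanks and 27.1% of the whole list. These 2 window intervals lay above those of the flanks. ASXL1 covered 27.1% of the windows and only 3.83% of the flanks, and HOX peaks are wider, so more overlap by position alone is built into these shares. With every list cut to its 10000 highest-scoring peaks, 53.8% of FOXK1 peaks in the windows overlapped ASXL1 (33.4 to 73.4%), against 15.7% in the flanks (7.02 to 28.6%) and 22.4% of the list. For O-GlcNAc the contrast was then no longer detectable, at 65.5% in the windows (45.7 to 82.1%), 58.8% in the flanks (40.7 to 75.4%) and 62.6% of the list.

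The other 4 comparisons gave overlapping intervals for windows and flanks. ASXL1 peaks overlapped O-GlcNAc in 79 of 207 cases (38.2%, 31.5 to 45.2%), against 28.9% (23.8 to 34.3%) in the flanks and 22.4% of the list. They overlapped FOXK1 in 38 cases (18.4%, 13.3 to 24.3%), against 16.4% (12.4 to 21.0%) and 10.5%. FOXK1 peaks overlapped O-GlcNAc in 24 of 38 cases (63.2%, 46.0 to 78.2%), against 45.5% (35.4 to 55.8%) and 37.8%, and O-GlcNAc peaks overlapped FOXK1 in 30 of 104 cases (28.8%, 20.4 to 38.6%), against 18.7% (13.9 to 24.3%) and 11.1%. All 24 FOXK1 peaks that overlapped O-GlcNAc also overlapped ASXL1 (85.8 to 100%), against 30 of 45 in the flanks (66.7%) and 76.2% of such peaks of the whole list. In the lists of 10000 peaks 34.6% of FOXK1 peaks overlapped O-GlcNAc (17.2 to 55.7%), against 15.7% in the flanks (7.02 to 28.6%) and 27.0% of the list, and 33.3% of ASXL1 peaks overlapped FOXK1 (19.6 to 49.5%), against 7 of 28 in the flanks (10.7 to 44.9%) and 22.7% of the list. In those lists the overlap of ASXL1 with O-GlcNAc turned, though with overlapping intervals, to 45.2% in the windows (29.8 to 61.3%), 71.4% in the flanks (51.3 to 86.8%) and 61.6% of the list.

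**Figure D4:**
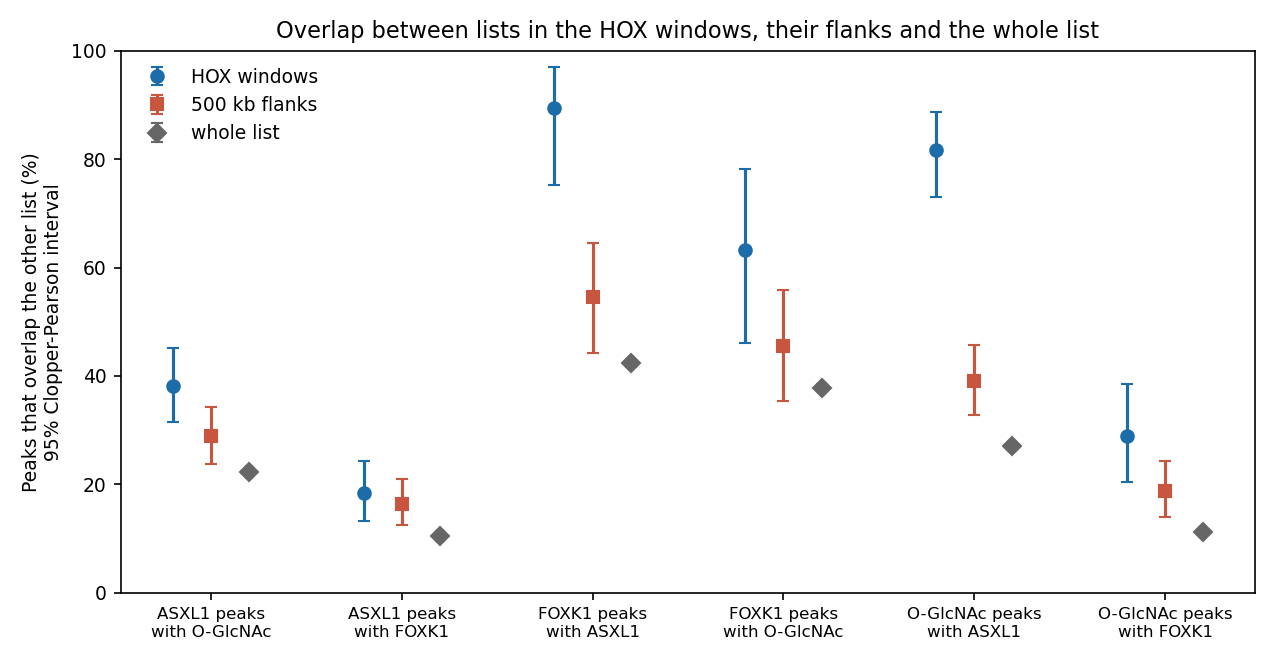
Percentage of each list's peaks that have at least 1 bp in common with the list named under it, in the HOX windows (circles), their 500 kb flanks (squares) and the whole list (diamonds), with 95% Clopper-Pearson intervals. The shares of FOXK1 and O-GlcNAc peaks that overlap ASXL1, 89.5% and 81.7%, lie above those of the flanks.

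The shares were also counted above a minimum width or score, which does not make window and flank peaks alike and leaves the difference in ASXL1 coverage. Of the FOXK1 peaks at least 500 bp wide, 33 of 33 in the windows overlapped ASXL1 (100%, 89.4 to 100%), against 63.3% (48.3 to 76.6%) in the flanks and 70.7% of the list. Of the O-GlcNAc peaks of that width, 43 of 43 did so in the windows, 89.1% in the flanks and 93.1% in the list. With a score of at least 100 required of the counted list only, 22 of 22 FOXK1 peaks overlapped ASXL1, against 68.6% in the flanks and 65.6% of the list. Of the O-GlcNAc peaks 43 of 44 did so (97.7%, 88.0 to 99.9%), against 81.4% (69.1 to 90.3%) in the flanks and 73.7% of the list. Required of both lists, the O-GlcNAc shares were 93.2% (81.3 to 98.6%) in the windows, 69.5% (56.1 to 80.8%) in the flanks and 66.0% of the list. For ASXL1 peaks at least 500 bp wide the overlap with O-GlcNAc was no higher in the windows: it was 52.1% in the windows, 54.9% in the flanks and 56.1% in the list.

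By cluster, O-GlcNAc overlapped ASXL1 in 25 of 27 HOXC peaks (92.6%), 27 of 32 HOXA peaks (84.4%), 12 of 16 HOXD peaks (75.0%) and 21 of 29 HOXB peaks (72.4%). FOXK1 overlapped ASXL1 in 9 of 9 HOXC peaks, 9 of 10 HOXB peaks, 6 of 7 HOXD peaks and 10 of 12 HOXA peaks. At these counts the intervals of the 4 clusters overlapped in both comparisons.

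Merging overlapping peaks gave 217 regions in the windows, 72 in HOXA, 60 in HOXB, 43 in HOXC and 42 in HOXD. All 3 lists had a peak in 25 of them (11.5%), against 6.37% of the flank regions and 3.90% of the regions of the whole series. Merging also joins peaks linked only through another peak, and 24 FOXK1 peaks in the windows overlapped both other lists themselves. ASXL1 and O-GlcNAc without FOXK1 held 46 (21.2%), against 10.8% of the flank regions and 8.48% of the series. ASXL1 and FOXK1 without O-GlcNAc held 9 (4.15%), against 4.25% and 1.73%, and no region was held by FOXK1 and O-GlcNAc without ASXL1, a pattern of 2.76% of the flank regions and 1.19% of the series. ASXL1 alone held 115 (53.0%), against 41.8% in the flanks and 43.6% in the series. O-GlcNAc alone held 18 (8.29%), against 27.6% and 34.5%, and FOXK1 alone 4 (1.84%), against 6.37% and 6.59%. Together 63.1% of the HOX regions were in a single list, against 75.8% of the flank regions and 84.7% of the series. Of the 25, 8 lay in HOXA, 6 in HOXB, 7 in HOXC and 4 in HOXD. None of those in HOXB and 1 of those in HOXC lay in the posterior part.

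Scores given for a region are the highest of each list in it, and the peaks that carry them need not overlap each other. In HOXA the strongest region held by all 3 lists was chr7:27204722-27206263, 75.5 kb from the anterior edge, where ASXL1 scored 2085.63, FOXK1 291.39 and O-GlcNAc 279.11. The highest FOXK1 score of all windows, 354.38, was in chr7:27182870-27184622, 53.7 kb from the edge, where ASXL1 scored 851.05 and O-GlcNAc 96.42. Next to it, chr7:27178581-27180619 had scores of 580.34, 175.92 and 275.88 in the same order of lists, and chr7:27191872-27192779 had 650.44, 148.08 and 64.25. These middle positions lay among the 5 shared regions of the middle part of HOXA. Nearer the anterior edge were chr7:27138162-27139139 (268.38, 195.16 and 129.55), chr7:27154543-27155293 (666.01, 105.83 and 76.93) and chr7:27172505-27173223, the weakest by its ASXL1 score (129.14, 56.76 and 66.24). In the posterior part only chr7:27213605-27214547 was shared by all 3 (599.91, 105.83 and 117.52).

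The highest ASXL1 peak of all HOX windows lay in the posterior part of HOXA without a FOXK1 peak. It was chr7:27224085-27225530, with a score of 2756.76, 94.8 kb from the anterior edge, and it overlapped the highest O-GlcNAc peak of HOXA (chr7:27224581-27225228, 480.77). A neighbouring ASXL1 peak, chr7:27227115-27230493, was 3379 bp wide with a score of 1466.71 and also overlapped O-GlcNAc. The posterior side of HOXA, that of HOXA11 and HOXA13, thus held strong ASXL1 and O-GlcNAc peaks, while FOXK1 was listed with 2 peaks there. At the other end of the cluster the second O-GlcNAc peak of HOXA, chr7:27135243-27136005 (316.21), overlapped ASXL1 only.

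In HOXB the regions held by all 3 lists began at chr17:46624161-46626146 (ASXL1 445.45, FOXK1 104.15, O-GlcNAc 188.43), 25.2 kb from the anterior edge. The next were chr17:46652185-46653293 (816.0, 156.88 and 215.29) and chr17:46666574-46668786 (1251.19, 140.01 and 80.25). In the middle part chr17:46681917-46683183 had the highest FOXK1 score of the cluster, 259.49, with 1157.32 for ASXL1 and 155.26 for O-GlcNAc. The last 2 were chr17:46692110-46693608 (200.67, 162.62 and 63.93) and chr17:46695891-46698565 (1040.16, 188.79 and 73.62), 97.2 kb from the edge. The strongest ASXL1 peak of HOXB, chr17:46670138-46673175, scored 2214.1 over 3038 bp and overlapped the strongest O-GlcNAc peak of the cluster (481.53) but no FOXK1 peak. Its neighbour chr17:46673232-46675070 scored 1347.12 and likewise overlapped O-GlcNAc only. The second FOXK1 peak of HOXB by score, chr17:46664730-46665467 (193.66), and the second O-GlcNAc peak, chr17:46662693-46663258 (271.05), each overlapped ASXL1 and lay in the anterior part.

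In HOXC, which begins at HOXC4 on its anterior side, 4 of the 7 regions held by all 3 lists were in the anterior part. Closest to the edge, at 3.14 kb, was chr12:54444831-54448895 with the widest ASXL1 peak (1322.6) and the highest FOXK1 score of the cluster (201.61), and O-GlcNAc at 140.61. At 18.7 kb, chr12:54430283-54432258 had the highest ASXL1 score of the cluster, 2044.68, while FOXK1 scored 141.31 there and O-GlcNAc 354.81. The other anterior regions were chr12:54426036-54428192 (572.16, 112.45 and 121.64) and chr12:54410118-54413655 (1161.78, 81.36 and 255.37). Further along were chr12:54393092-54394364 (701.88, 148.11 and 148.36), chr12:54378669-54379408 (201.37, 107.81 and 267.58) and chr12:54357137-54358595 (352.99, 61.84 and 54.71). The highest O-GlcNAc score of all windows, 693.44, was at chr12:54332064-54332799, close to the posterior edge of HOXC, the side of HOXC13, where ASXL1 overlapped it and FOXK1 did not. An ASXL1 peak in the middle part, chr12:54384016-54384792 (1162.77), also overlapped O-GlcNAc alone.

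HOXD had the fewest regions held by all 3 lists. They were chr2:177021733-177023281 (ASXL1 684.96, FOXK1 50.27, O-GlcNAc 154.24), chr2:177010655-177011341 (277.75, 249.33 and 96.44), chr2:176968709-176969661 (529.24, 54.95 and 88.73) and chr2:176961044-176962675 (246.74, 93.95 and 171.6). They ran from 37.5 to 98.1 kb from the anterior edge. The FOXK1 peak overlapped both other lists in 3 of them, and in the remaining region it did not overlap O-GlcNAc. The strongest ASXL1 peak of the cluster, chr2:176970938-176972329, scored 1219.85 and overlapped neither FOXK1 nor O-GlcNAc. The second FOXK1 peak of HOXD by score, chr2:177053167-177053672 (142.53), lay 6.58 kb from the anterior edge and overlapped ASXL1 only. The highest O-GlcNAc peak, chr2:176945000-176945579 (276.07), lay in the posterior part, the side of HOXD13. The next, chr2:176995127-176995739 (267.91) and chr2:176994247-176994505 (197.67), lay close together in the middle part and overlapped ASXL1. The second ASXL1 peak of HOXD, chr2:176956943-176957714 (929.77), overlapped O-GlcNAc.

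Over the 25 regions held by all 3 lists the highest ASXL1 score of a region ran from 129.14 to 2085.63 with a median of 650.44. The highest FOXK1 score ran from 50.27 to 354.38 with a median of 141.31. For O-GlcNAc it ran from 54.71 to 354.81 with a median of 129.55. Of the 35 ASXL1 peaks with a score of at least 500, a class chosen after the scores had been seen, 31 overlapped O-GlcNAc (88.6%, 73.3 to 96.8%), against 87.5% in the flanks and 86.4% of the whole list in that class. FOXK1 overlapped 16 of them (45.7%, 28.8 to 63.4%), against 33.3% and 31.2%, and these 16 overlapped O-GlcNAc too, as 29.8% of the whole list in that class overlapped both. Of the 76 ASXL1 peaks with a score under 100, 62 overlapped neither list (81.6%), against 81.6% in the flanks and 88.6% of the whole list, while 11 overlapped O-GlcNAc (14.5%, against 8.45% of the list), 3 overlapped FOXK1 (3.95%, against 4.82%) and none overlapped both (against 1.89%). Within a score class, then, the window intervals included the flank shares of overlap with O-GlcNAc and with FOXK1.

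Of the 35 strong ASXL1 peaks 4 stood alone (11.4%), against 12.2% of the whole list in that class. They were chr7:27214562-27215249 in HOXA (1077.91), chr17:46621782-46622775 in HOXB (661.89) and a pair in HOXD, chr2:176969728-176970531 (666.48) and chr2:176970938-176972329 (1219.85). The HOXA peak and the first of the HOXD pair lay right beside a region held by all 3 lists. As a group the 115 ASXL1 peaks found alone had a median score of 87.1 and a median width of 399 bp, against 323 and 827 bp for the 92 shared ones.

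FOXK1 and O-GlcNAc peaks found alone scored lower and were narrower, by their medians, than the shared HOX peaks of the same list. In the whole lists, too, higher-scoring peaks were shared more often. Overlap with any other list was 29.9% for all O-GlcNAc peaks and 77.0% for those with a score of at least 100. For FOXK1 these shares were 51.3% and 74.3%. The 4 lone FOXK1 peaks were chr7:27133682-27133845 (71.22) and chr7:27218003-27218406 (76.91) in HOXA, chr17:46736544-46736903 (67.15) in HOXB and chr2:177046372-177046638 (76.92) in HOXD, with widths of 164, 404, 360 and 267 bp. The 34 shared FOXK1 peaks had a median score of 111 and were at least 467 bp wide. In their own list the lone FOXK1 peaks were of middling rank, with a median score of 74.1 against 76.3. The 18 lone O-GlcNAc peaks had scores from 50.95 to 107.16 and widths from 131 to 467 bp. Their median width of 226 bp was near the 231 bp of the whole list, and the median score was 61.3 against 67.1. Of these, 8 were in HOXB, 4 in HOXA, 4 in HOXD and 2 in HOXC.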

How the data were processed

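Peaks of ASXL1, FOXK1 and O-GlcNAc (1 library each) from Flp-In HEK293 T-REx cells were used. Per the submitters' processing notes, Bowtie2 2.0.0, MACS 1.4 and the build hg19 were used, and their settings are not given in the sources used here. Each peak of the deposited lists has a position and a score given by the authors' peak caller, whose scale is not stated, so the score only ranked and filtered peaks within a list. Lists were called per library, not pooled. The libraries are PCR products with no molecular identifiers named.

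Peaks overlapping a window by at least 1 bp were counted as members, and 1 HOXA peak crosses the window's edge. Densities have exact Poisson intervals and shares exact Clopper-Pearson intervals (95%), computed with Python 3.11.15 and scipy 1.17.1. The counting was tested on simulated peak lists, where all 6 checks returned the numbers the lists were made with. The planned count of HOX genes with a peak at the start site was not made, because it needs an hg19 annotation, which was not used here. Gene order came from RefSeq GRCh38.p14, where all 38 symbols matched, and was taken to be the same in hg19. Positions named are all regions held by 3 lists, the 3 highest-scoring peaks per list and window and, chosen after their values were seen, the widest ASXL1 peak and the lone peaks of small classes. The windows, genes and lists were chosen with earlier results of these data known. Other settings were a stricter score, shorter lists, other overlap rules, flanks, bins and parts, and each window left out in turn. A width of at least 500 bp was added after the data had been seen.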

Additional observations from a re-analysis of the deposited data

How the results depend on the processing

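Of 120 recomputed values, 85 moved by less than their counting interval and 35 moved by more. No value whose interval lay on one side of its neutral value turned to the other side, but the ASXL1 posterior share, whose interval included 50%, crossed it without HOXB. The ratio of window to flank density stayed above 1 in each setting and list, from 1.93 to 10.5. For ASXL1, FOXK1 and O-GlcNAc it was 7.02, 4.41 and 5.23 with a score of at least 100, and 7.07, 4.35 and 4.48 by covered bases. Among the 10000 highest-scoring peaks it was 10.5 for ASXL1 and 5.99 for O-GlcNAc. The ASXL1 ratio was 5.91 with flanks of 250 kb, 3.41 without HOXA, 6.59 without HOXB and 6.10 without HOXC, and the O-GlcNAc ratio 2.31 without HOXA and 4.22 without HOXB.

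Among the 10000 highest-scoring peaks of each list, ASXL1 was overlapped by 53.8% of FOXK1 peaks, O-GlcNAc by 34.6%, 65.5% of O-GlcNAc peaks overlapped ASXL1, and 33.3% of ASXL1 peaks overlapped FOXK1 and 45.2% O-GlcNAc. With a score of at least 100 in both lists, ASXL1 overlapped O-GlcNAc in 31.3% (flanks 32.1%, list 35.7%), O-GlcNAc overlapped ASXL1 in 93.2% (69.5%, 66.0%) and FOXK1 overlapped ASXL1 in 100% (62.9%, 51.7%). Among peaks at least 500 bp wide, ASXL1 overlapped FOXK1 in 27.3% and O-GlcNAc in 52.1%, and FOXK1 and O-GlcNAc overlapped ASXL1 in 100%. With 400 bp on each peak centre, O-GlcNAc overlapped ASXL1 in 66.3%. The posterior share was 56.1% for ASXL1 without HOXB and 9.09% for FOXK1 with a score of at least 100. Occupied bins were 93.1%, 72.4% and 86.2% (ASXL1, FOXK1, O-GlcNAc) at 20 kb, against 58.9%, 34.0% and 61.4% in the flanks and 31.7%, 11.4% and 34.8% over chromosomes 1 to 22 and X. For FOXK1 they were 33.3% both at 5 kb (flanks 12.4%, chromosomes 3.55%) and with a score of at least 100 (7.75%, 2.34%), and for O-GlcNAc 52.6% with that score (13.8%, 5.18%). Bins of another length change the occupied share by construction. For the other settings the cause was not tested.

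No paired analysis was possible because no antibody had a second library, for which reason none was left out in turn. The count of genes with a peak at the start site and its alternatives were not run. Depth is unknown, so a stretch without a FOXK1 peak is not shown to lack FOXK1.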
